A study of Mus musculus with 12 samples.

Results

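The colony stimulating factors (CSFs) and their receptors were followed across the 4 genotype groups of a mouse oesophageal epithelium RNA-seq series. The set was chosen by gene name: the cytokine genes Csf1, Csf2 and Csf3 and the receptor genes Csf1r, Csf2ra, Csf2rb, Csf2rb2 and Csf3r. All 8 were found among the 23337 gene symbols of the count files. Each group had 3 libraries of polyA RNA from C57BL/6 mice aged 6 weeks, made after the epithelium had been peeled mechanically from the stroma.

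Control animals had the genotype ROSA26-StopFL-Ikk2ca+/L; Stat3L/L without Cre, so they carried the silent Ikk2ca transgene and floxed Stat3. The active IKKβ group was ED/L2-Cre+; ROSA26-StopFL-Ikk2ca+/L, and Cre there removed the stop cassette before a constitutively active IKKβ, the kinase that switches on canonical NF-κB. Animals with Stat3 loss were ED/L2-Cre+; Stat3L/L. The combined group carried ED/L2-Cre+ with both of the other loci, ROSA26-StopFL-Ikk2ca+/L and Stat3L/L. The Epstein-Barr virus ED/L2 promoter directs Cre to oesophageal epithelial cells, so leukocytes and residual stroma in the tissue kept unrecombined alleles by design. Every comparison with Control also compares Cre carriers with animals that lack Cre, and floxed Stat3 is not among the alleles given for the active IKKβ group. The labels do not say that libraries came from separate animals, so p-values measure the spread between these libraries.

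CSFs are secreted cytokines that control the survival, proliferation and activation of myeloid cells. M-CSF, the product of Csf1, signals through the receptor tyrosine kinase encoded by Csf1r on monocytes and macrophages, and IL-34 is a second ligand of that receptor that maintains Langerhans cells in squamous epithelia. GM-CSF, from Csf2, binds a specific α chain, encoded by Csf2ra, which pairs with a shared β chain, encoded by Csf2rb, that also serves IL-3 and IL-5 and signals through JAK2 and STAT5. Mice have an additional β chain gene, Csf2rb2, whose product serves IL-3. G-CSF, from Csf3, acts on neutrophils and their precursors through Csf3r and STAT3. Csf1, Csf2 and Csf3 are known NF-κB target genes in epithelial and stromal cells.

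Library totals ranged from 14816468 to 30188363 counts. Ikbkb, the gene of IKKβ, lay between 83.4 and 97.7 CPM (counts relative to library size, scaled by TMM factors) in the 6 libraries of both groups with the active kinase and between 59.7 and 82.6 in the other 6, a log2 fold change of 0.43 ± 0.10 (SE; edgeR, adjusted p = 0.0373). Stat3 lay within 157 to 179 CPM in Control and 139 to 154 with Stat3 loss (log2 fold change -0.22 ± 0.15, edgeR adjusted p = 0.788), and counts over the whole gene do not resolve the deleted part, so they do not check the deletion. The 10 keratinocyte markers were all present, and edgeR and DESeq2 called 0 of 10 in active IKKβ against Control, beside 0.955% of all tested genes by edgeR. Krt6a still measured 289 to 820 CPM in Control and 932 to 1747 in active IKKβ. DESeq2 called it higher with active IKKβ averaged over both Stat3 states, as 3.8% of genes. It was also called lower with Stat3 loss averaged over both IKKβ states, as 1.62% of genes. The keratinocyte marker Krt4 varied widely within groups, from 23620 to 87688 CPM in Control and 20784 to 87540 in active IKKβ. It ran from 24695 to 57242 CPM with Stat3 loss and 15392 to 78270 in the combined group. The part of this spread in the CSF gene values was not tested. Active IKKβ replicate 1 and Stat3 loss replicate 3 stood apart through gastric transcripts, with summed gastric markers at 1709 and 113 CPM against at most 18.9 in the other 10 libraries. Skeletal muscle markers varied too. They summed to 705, 553 and 45.6 CPM in replicates 1, 2 and 3 of active IKKβ and 18.5, 718 and 1493 with Stat3 loss. Their sums were 7.66 to 255 CPM in Control and 20.4 to 192 in the combined group. By Xist and Y-linked transcripts, replicate 1 of every group was female and replicates 2 and 3 male.

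The 2 β chain genes need a word on sequence because reads from one can be counted for the other. Csf2rb lies at chr15:78325752-78353847 on the plus strand and Csf2rb2 at chr15:78282507-78305721 on the minus strand (mm10, GENCODE M21), head to head and 20.03 kb apart. Their coding sequences, 2688 and 2634 bases, were 95.2% identical over 2628 aligned bases. The stretch where they differ most is shown first, as 90 coding bases of each from GENCODE M21 on mm10, with the 16 mismatches in capitals (Csf2rb at chr15:78338897-78338986, plus strand; Csf2rb2 at chr15:78294345-78294434, minus strand).
Csf2rb: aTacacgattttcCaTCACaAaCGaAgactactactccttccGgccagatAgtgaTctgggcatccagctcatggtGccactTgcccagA
Csf2rb2: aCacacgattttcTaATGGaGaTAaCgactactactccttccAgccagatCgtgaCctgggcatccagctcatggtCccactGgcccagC
The longest run with no mismatch was 242 bases (coding bases 2083 to 2324 in both, Csf2rb at chr15:78348577-78348818), and it is printed because no read inside it can be assigned to 1 gene.
Both genes: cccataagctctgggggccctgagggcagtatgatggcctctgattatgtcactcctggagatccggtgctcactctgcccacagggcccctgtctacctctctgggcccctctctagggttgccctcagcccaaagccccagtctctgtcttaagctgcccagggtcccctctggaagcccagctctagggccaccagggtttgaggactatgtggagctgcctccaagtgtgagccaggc
Of all windows of 50 coding bases, 26.0% of those of Csf2rb and 26.6% of those of Csf2rb2 had an exact copy in the other gene. The submitters' notes name HTSeq, and neither its setting for reads with several matches nor the strand setting is given in the sources used here. The split of counts between both genes is therefore uncertain, and their sum is given as well.

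Csf1 was detected in every library, and it rose with active IKKβ when both Stat3 states were averaged. It measured 10.2, 14.9 and 14.4 CPM in Control and 26.6, 27.1 and 37.1 CPM in active IKKβ; the Stat3 loss libraries had 12.5, 12.6 and 6.11 CPM and the combined ones 16.2, 22.4 and 20.9 CPM. All 6 libraries with active IKKβ exceeded all 6 without it. The means were 13.2 ± 2.57, 30.3 ± 5.91, 10.4 ± 3.72 and 19.8 ± 3.26 CPM (SD, n = 3 each). Against Control, active IKKβ gave a log2 fold change of 1.20 ± 0.27 (SE), 2.30-fold with a 95% interval of 1.51 to 3.49, which missed the threshold (edgeR quasi-likelihood test, Benjamini-Hochberg adjusted p = 0.0827). When the effect of active IKKβ was averaged over both Stat3 states, Csf1 rose by 1.06 ± 0.19 on the log2 scale, 2.09-fold, and passed (edgeR adjusted p = 0.0157).

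The Csf1 start lies at the upper end of chr3:107741048-107760469 on the minus strand. Its RefSeq promoter, the 250 bases before the start (GRCm38.p6, chr3:107760470-107760719, minus strand), is shown because NF-κB lies downstream of the transgene; capitals mark 1 match to the NF-κB consensus motif on the opposite strand, from base -154 to base -145.
Csf1: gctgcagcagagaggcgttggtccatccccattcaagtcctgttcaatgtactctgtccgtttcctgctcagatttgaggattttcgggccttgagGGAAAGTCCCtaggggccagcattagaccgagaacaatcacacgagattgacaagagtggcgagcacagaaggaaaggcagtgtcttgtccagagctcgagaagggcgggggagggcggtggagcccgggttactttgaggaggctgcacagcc
Of 32851 RefSeq promoters of this length, 7.25% held such a match on either strand, and a match in the letters is a description, not a site. RefSeq windows were matched for 5 of the 8 genes. Of the others, Csf3r had a match to the same motif from base -129 to base -120, while the windows of Csf2, Csf2ra and Csf2rb2 had none. Windows follow RefSeq starts, which can differ from those of GENCODE. The Csf2 window (chr11:54249900-54250149, minus strand) lies away from the GENCODE start at 54249667. The bases next to that start were therefore not scanned.

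Csf2 and Csf3, the genes of GM-CSF and G-CSF, were near the limit of detection in every group, and neither passed the count filter. Csf2 had 0, 2 and 0 counts in the Control libraries and 0, 0 and 3 in active IKKβ. No Csf2 count was found in the 6 libraries of the Stat3 loss and combined groups, where 3 counts would correspond to between 0.132 and 0.174 CPM. The ratio of active IKKβ to Control was 1.46 with a counting interval of 0.167 to 17.5 (exact, 95%, counting error only), so no difference was detectable at this depth. Csf3 had 0, 4 and 0 counts in Control, 8, 4 and 0 in active IKKβ, and 0, 1 and 2 under Stat3 loss against 0, 5 and 0 in the combined libraries. The totals of 12 against 4 counts gave a ratio of 2.92 (0.884 to 12.4). Libraries with and without Csf3 counts occurred in all 4 groups.

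Csf1r, the M-CSF receptor kinase of monocytes, macrophages and Langerhans cells (chr18:61100598-61132149, plus strand), was likewise highest in active IKKβ. It measured 8.44, 18.5 and 12.4 CPM in Control, 34.9, 40.7 and 46.4 in active IKKβ, and 17.2, 17.4 and 5.07 under Stat3 loss against 10.2, 23.2 and 24.5 in the combined libraries. The 3 active IKKβ libraries lay above the other 9, which overlapped across the remaining groups. The difference from Control, 1.63 ± 0.46 (log2, SE; 3.10-fold, 95% interval 1.53 to 6.29), did not pass the threshold (edgeR adjusted p = 0.184). The average over both Stat3 states was 1.09 ± 0.32 (edgeR adjusted p = 0.125). In whole tissue, more cells of a type and more RNA per cell cannot be told apart, which applies to each receptor here.

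Csf2ra, the α chain that gives the GM-CSF receptor its specificity (chr19:61223957-61228429, minus strand), differed least of the tested receptor genes in active IKKβ against Control. It measured 6.37, 7.53 and 4.50 CPM in Control, 16.6, 7.59 and 7.57 in active IKKβ, and 9.60, 6.15 and 4.25 under Stat3 loss against 5.86, 12.9 and 7.12 in the combined libraries. The high value of active IKKβ came from replicate 1, the library rich in gastric transcripts, and the other 2 lay just above the highest Control library. The log2 difference from Control was 0.79 ± 0.42 (SE, edgeR adjusted p = 0.458), and 0.31 without replicate 1 (edgeR adjusted p = 0.693).

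Csf2rb and Csf2rb2, the β chains, showed larger log2 fold changes in active IKKβ than the other 3 tested members. Csf2rb measured 2.18, 3.24 and 1.98 CPM in Control, 12.6, 13.2 and 12.3 in active IKKβ, and 2.12, 1.27 and 0.873 under Stat3 loss against 1.70, 6.68 and 4.13 in the combined libraries. The 3 active IKKβ libraries differed by less than 1 CPM, whereas the combined libraries ran from below the Control range to above it. Csf2rb2 measured 2.46, 1.25 and 2.17 CPM in Control, 10.5, 15.1 and 13.9 in active IKKβ, and 2.43, 1.23 and 0.873 under Stat3 loss against 3.05, 5.98 and 6.44 in the combined libraries. For Csf2rb2 every library with active IKKβ exceeded every library without it. The lowest count of either gene in any library was 16.

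Against Control, active IKKβ raised Csf2rb by 2.37 ± 0.46 on the log2 scale (SE; 5.16-fold, 95% interval 2.57 to 10.4, edgeR adjusted p = 0.0374) and Csf2rb2 by 2.74 ± 0.43 (6.68-fold, 3.49 to 12.8, edgeR adjusted p = 0.0126). These were the 2 genes called among the 5 members tested, beside 0.955% of all 14134 tested genes called in that comparison and 0.899% called higher. All 5 tested members had active IKKβ libraries above every Control library, as did 9.34% of all tested genes. The median log2 fold change of the 5 was 1.63, and that of all tested genes 0.0048. The Csf2rb call was lost without any 1 of the Control or active IKKβ libraries, Stat3 loss replicate 2 or combined replicate 3 (edgeR adjusted p = 0.0634 to 0.190), and the Csf2rb2 call without Control replicate 1 or 2 or active IKKβ replicate 2 or 3 (0.0540 to 0.0670). DESeq2 called Csf1 and Csf1r as well, with 2.29% of genes called higher. With both β chain genes summed, the sum was called (log2 fold change 2.55, edgeR adjusted p = 0.0102).

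**Figure D1:**
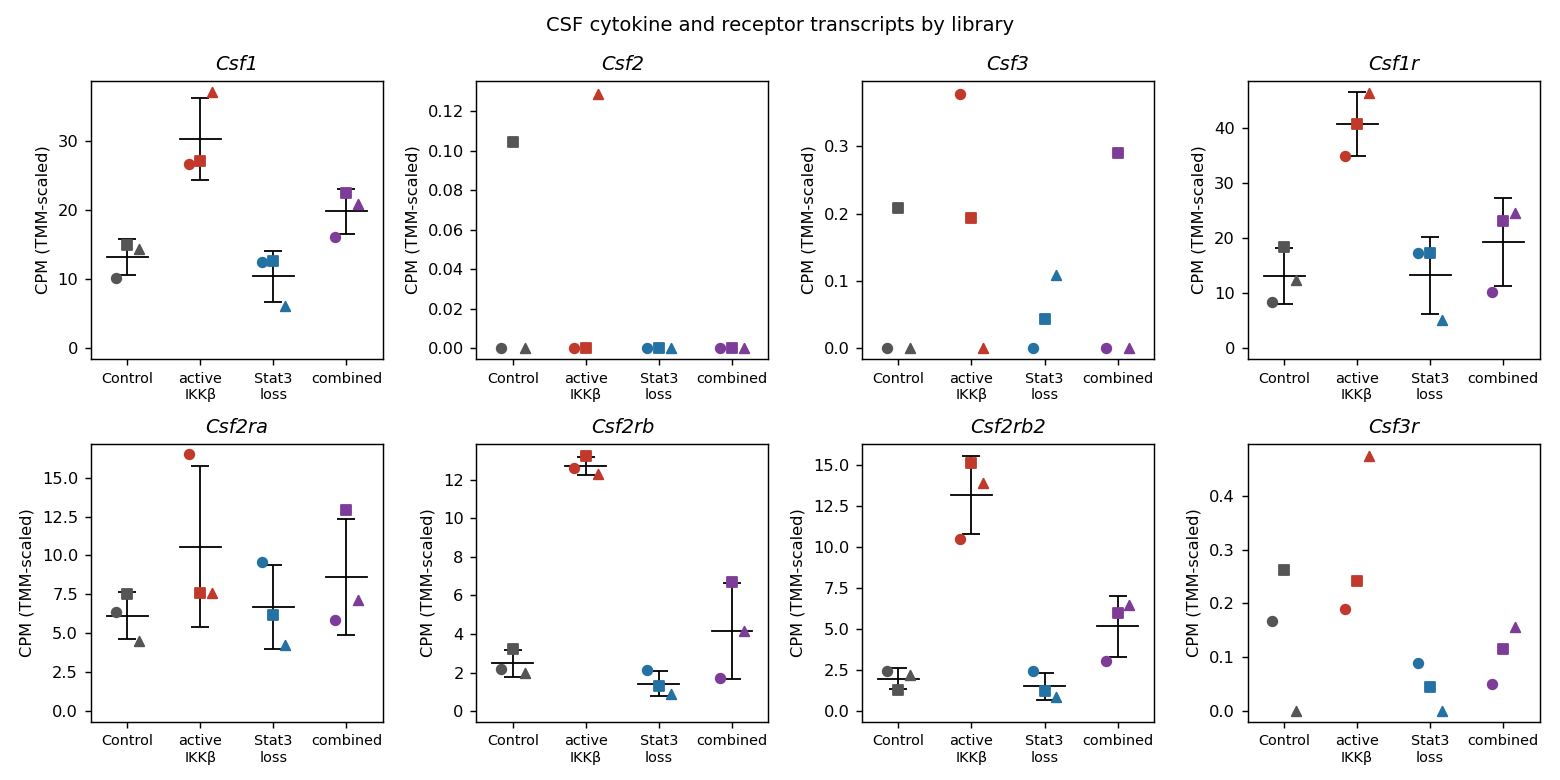
TMM-scaled CPM (vertical axes) of the 8 CSF genes in the 12 libraries, by group; circles, squares and triangles are replicates 1, 2 and 3, and lines and bars give mean and SD for the 5 tested genes. Csf2rb stood between 12.3 and 13.2 CPM in active IKKβ and between 1.98 and 3.24 in Control, and Csf2, Csf3 and Csf3r stayed under 0.5 CPM.

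The effect of active IKKβ was also estimated across both Stat3 states, which uses 6 libraries with and 6 without the active kinase. The libraries without it include Control, so part of this average also compares Cre carriers with animals that lack Cre. Csf2rb rose by 1.95 ± 0.32 (log2, SE; 3.87-fold, edgeR adjusted p = 0.0094) and Csf2rb2 by 2.25 ± 0.30 (4.75-fold, edgeR adjusted p = 0.0024). With Csf1, 3 of the 5 tested members rose, beside 2.72% of all tested genes called and 2.12% called higher. Csf1 and Csf2rb2 were the members whose 6 and 6 libraries did not overlap, as was so, in the higher direction, for 1.52% of tested genes. The Csf2rb and Csf2rb2 calls were kept in each of 12 fits that left out 1 library (adjusted p up to 0.0349 and 0.0121). The Csf1 call was lost without combined replicate 3 (edgeR adjusted p = 0.0523).

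Csf3r, the G-CSF receptor of neutrophils (chr4:126024550-126044440, plus strand), had 3, 5 and 0 counts in Control, 4, 5 and 11 in active IKKβ, and 2, 1 and 0 under Stat3 loss against 1, 2 and 3 in the combined libraries. The active IKKβ and Control libraries overlapped, and the totals of 20 against 8 counts gave a ratio of 2.43 with an exact counting interval of 1.03 to 6.38. The combined total of 6 counts against 20 gave 0.347 (0.114 to 0.895). These intervals cover counting error and not the spread between libraries, and the gene was under the count filter. The 15 neutrophil markers found summed to 9.62 to 326 CPM in Control, 30.0 to 1977 in active IKKβ, 8.13 to 620 with Stat3 loss and 15.4 to 22.4 in the combined group, with the highest sum in active IKKβ replicate 1. Ltf, the lactoferrin gene, gave 1970 CPM of that sum, 320.2 CPM in Control replicate 2 and 607 CPM in Stat3 loss replicate 3. Without Ltf, the other 14 summed to 5.96 to 21.5 CPM in Control and 7.33 to 29.3 in active IKKβ. They summed to 3.47 to 13.1 CPM with Stat3 loss and 2.38 to 12.5 in the combined group. Cxcr2 gave the largest part of that sum in every library, with 5.44 to 21.1 CPM in Control and 4.02 to 28.8 in active IKKβ. Its values were 3.06 to 12.98 CPM with Stat3 loss and 1.92 to 11.99 in the combined group. The sum without Ltf therefore mainly follows 1 gene. Elane and Cxcr1, which mark neutrophils and their precursors, had 0 counts in every group, 2 of the 15 markers could be tested, and neither was called by edgeR or DESeq2. The part of neutrophils in the Csf3r counts was not tested.

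Levels of different genes are compared per kilobase of annotated exon. In Control, Csf1, Csf1r and Csf2ra were close to each other, at 2.50 ± 0.487, 2.27 ± 0.873 and 2.14 ± 0.533 CPM per kb (SD, n = 3), and their libraries overlapped. In active IKKβ, Csf1r stood at 7.05 ± 0.991, Csf1 at 5.73 ± 1.12, Csf2ra at 3.68 ± 1.80 and Csf2rb2 at 2.78 ± 0.502 CPM per kb, and the libraries of neighbours among these 4 overlapped. Csf2rb followed at 1.75 ± 0.0666 CPM per kb, with libraries at 1.69 to 1.82 below the 2.21 to 3.18 of Csf2rb2. The order of these 2 genes is uncertain because the counting could split their shared reads. Csf2 reached at most 0.161 CPM per kb in any library.

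Stat3 loss alone was compared with Control to ask whether STAT3 affects these genes in tissue without the active kinase. None of the 5 tested members changed, beside 0% of all tested genes called by edgeR, with 1060 genes at an unadjusted p under 0.05 and 43 higher and 63 lower by DESeq2. Csf1 differed by -0.34 (log2, 95% interval -0.94 to 0.26), Csf1r by 0.01 (-0.99 to 1.02) and Csf2ra by 0.13 (-0.80 to 1.05). Csf2rb differed by -0.78 (-1.80 to 0.23) and Csf2rb2 by -0.37 (-1.30 to 0.56). The groups overlapped for all 8 members. Overlap was also the common case among tested genes, of which 6.96% were higher and 6.1% lower without it. Csf2, Csf3 and Csf3r, under the count filter, are not part of those shares. Stat3 loss replicate 3, rich in gastric and skeletal muscle transcripts, had the lowest value of its group for each of the 5 tested members.

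The combined group was compared with active IKKβ, to ask what Stat3 loss does where the kinase is active. Csf2rb measured 4.17 ± 2.49 CPM in the combined group against 12.7 ± 0.485 in active IKKβ (log2 difference -1.61 ± 0.44, SE, edgeR adjusted p = 0.350), and Csf2rb2 5.16 ± 1.84 against 13.2 ± 2.38 (-1.35 ± 0.40, edgeR adjusted p = 0.385). Csf1r differed by -1.08 ± 0.46 (edgeR adjusted p = 0.487), Csf1 by -0.61 ± 0.27 (0.499) and Csf2ra by -0.30 ± 0.42 (0.852). For Csf1, Csf1r, Csf2rb and Csf2rb2 every combined library lay below every active IKKβ library, as did 7.54% of tested genes. The untested Csf3r, not part of that share, was separated in the same way on 1 to 3 counts against 4 to 11. No member was called, beside 0% of all tested genes by edgeR, while 1396 genes had an unadjusted p under 0.05. By DESeq2 53 genes were higher and 78 lower, 0.553% of those tested, with Csf2rb among the latter.

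A further pair of comparisons set the combined group beside Control and beside Stat3 loss, and both share libraries with those above. Against Control, Csf2rb2 differed by 1.39 ± 0.41 (log2, SE, edgeR adjusted p = 0.191), Csf2rb by 0.76 ± 0.45 (0.575), Csf1 by 0.59 ± 0.27 (0.447), Csf1r by 0.56 ± 0.46 (0.728) and Csf2ra by 0.49 ± 0.42 (0.745). None of the 5 was called, beside 0.884% of tested genes, and the combined libraries of Csf1 and Csf2rb2 lay above those of Control, as for 7.2% of tested genes. Against Stat3 loss, Csf2rb2 differed by 1.76 ± 0.42 (edgeR adjusted p = 0.139), Csf2rb by 1.54 ± 0.46 (0.274) and Csf1 by 0.93 ± 0.28 (0.271). Csf1r differed there by 0.54 ± 0.46 (edgeR adjusted p = 0.832) and Csf2ra by 0.37 ± 0.42 (0.894). None of the 5 was called there either, beside 0.46% of tested genes, and Csf1 and Csf2rb2 had groups without overlap, as had 6.06% in the higher direction. By DESeq2, Csf2rb2 passed against Control, where 1.67% of genes were called higher, and both β chains passed against Stat3 loss, where 1.38% were.

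**Figure D2:**
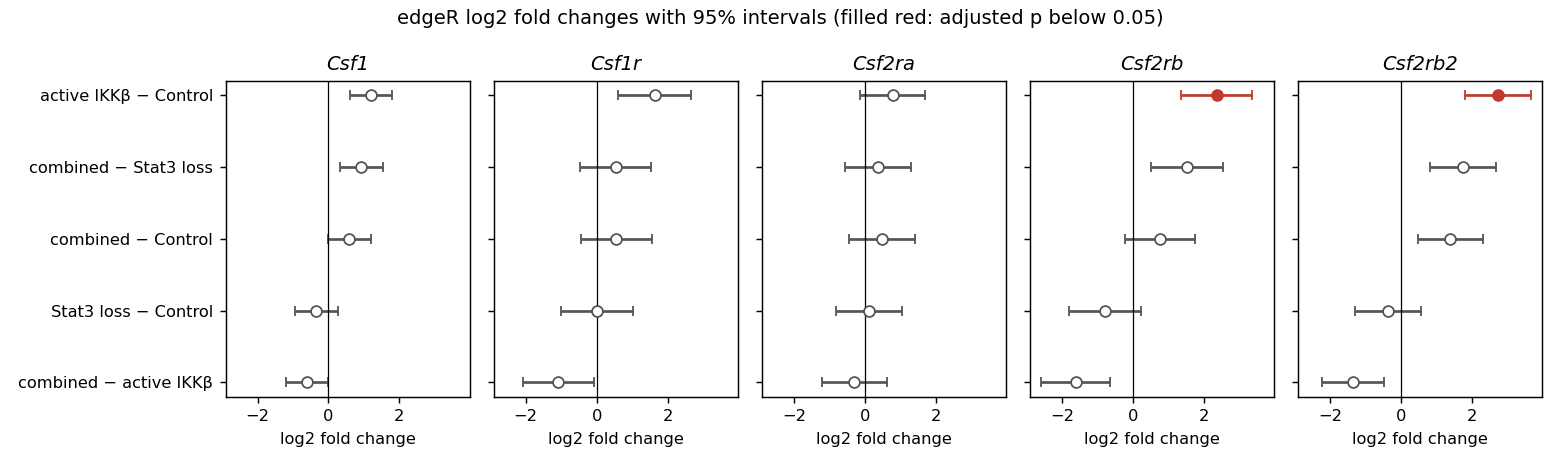
Log2 fold changes (horizontal axes) of the 5 tested CSF genes in 5 comparisons, as points with 95% intervals from edgeR; filled red points have an adjusted p below 0.05. The called points are Csf2rb and Csf2rb2 in active IKKβ against Control, at 2.37 and 2.74.

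The response to active IKKβ was not shown to depend on Stat3. Control libraries, which lack Cre, enter this comparison too. The interaction, the effect of active IKKβ with Stat3 deleted minus that with Stat3 present, was -0.98 for Csf2rb2 (95% interval -2.26 to 0.29), -0.83 for Csf2rb (-2.22 to 0.57), -1.09 for Csf1r (-2.51 to 0.32), -0.42 for Csf2ra (-1.73 to 0.88) and -0.27 for Csf1 (-1.12 to 0.58). All 5 adjusted p-values were 1.0 (edgeR), and 0% of all tested genes were called, with 658 at an unadjusted p under 0.05 and 6 called by DESeq2. Stat3 loss averaged over both IKKβ states gave -1.20 ± 0.32 for Csf2rb (log2, SE, edgeR adjusted p = 0.176), -0.86 ± 0.29 for Csf2rb2 (0.246) and -0.48 ± 0.19 for Csf1 (0.335). Csf1r differed by -0.53 ± 0.32 in that average (edgeR adjusted p = 0.525) and Csf2ra by -0.08 ± 0.30 (0.937). Again none of the 5 was called, beside 0.262% of tested genes. DESeq2 called Csf2rb in that average, with 1.62% of genes called lower.

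The Csf2rb2 promoter is shown because it held the single STAT motif match among the 5 RefSeq windows (TTCNNNGAA, a palindrome read on both strands; GRCm38.p6, chr15:78305722-78305971, minus strand), in capitals from base -15 to base -7.
Csf2rb2 promoter: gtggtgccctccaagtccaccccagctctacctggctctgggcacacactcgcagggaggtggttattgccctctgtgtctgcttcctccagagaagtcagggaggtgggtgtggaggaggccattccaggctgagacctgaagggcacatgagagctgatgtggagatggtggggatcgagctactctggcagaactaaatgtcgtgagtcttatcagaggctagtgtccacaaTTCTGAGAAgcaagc
Of 32851 promoters, 7.02% held such a match. The PU.1 motif GAGGAAGT, present in 2.44%, and the AP-1 motif TGANTCA, present in 6.75%, had no match in the 5 windows on either strand.

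The β chains were also set against the other receptor genes, as ratios chosen with these values known and therefore given without a test. The sum of Csf2rb and Csf2rb2 was 4.43 ± 0.250 CPM in Control, 25.9 ± 2.62 in active IKKβ, 2.93 ± 1.45 under Stat3 loss and 9.33 ± 4.10 in the combined libraries (SD, n = 3). Relative to Csf2ra, which encodes the α chain that pairs with the Csf2rb product in the GM-CSF receptor, the sum ranged from 0.597 to 0.924 in Control, 1.40 to 3.73 in active IKKβ, 0.407 to 0.474 under Stat3 loss and 0.812 to 1.49 in the combined libraries. The lowest active IKKβ ratio lay within the combined range and above all Control and Stat3 loss libraries. Relative to Csf1r it ranged from 0.244 to 0.550 in Control, 0.564 to 0.696 in active IKKβ, 0.144 to 0.344 under Stat3 loss and 0.432 to 0.546 in the combined libraries. Csf2rb took between 35.8% and 72.1% of the counts of both genes, and 46.8% to 54.6% in active IKKβ.

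**Figure D3:**
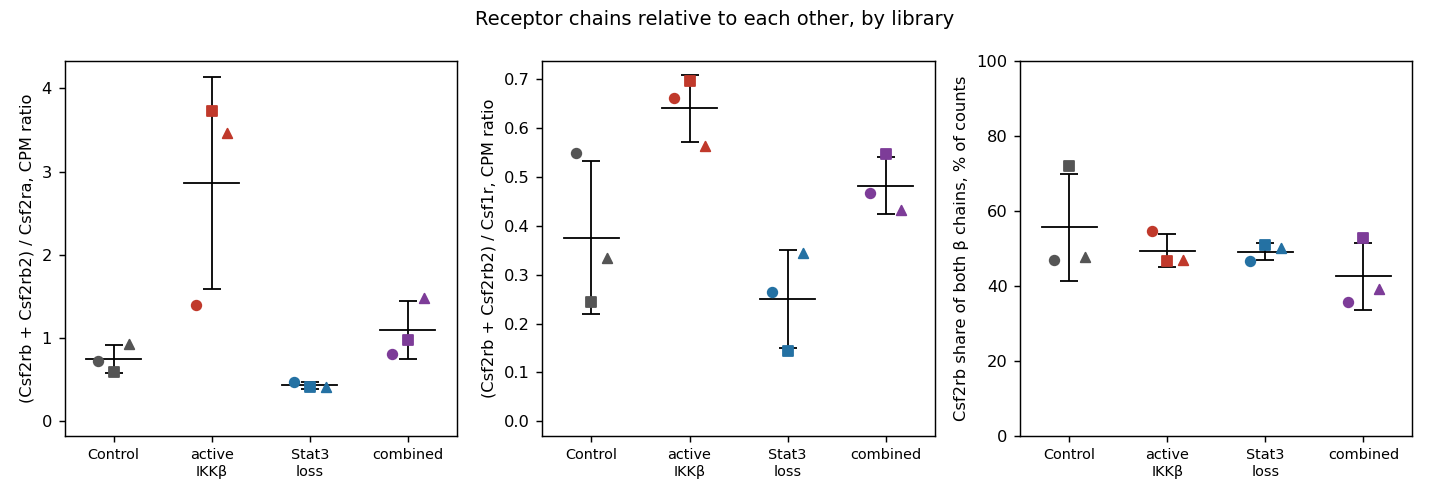
The summed CPM of Csf2rb and Csf2rb2 divided by Csf2ra (left) and by Csf1r (middle), and the percent of both genes' counts assigned to Csf2rb (right), per library with mean and SD by group; marker shapes are replicates 1 to 3. The ratio to Csf2ra ran from 1.40 to 3.73 in active IKKβ and from 0.407 to 0.474 with Stat3 loss.

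In active IKKβ against Control, 2 of 7 tested dendritic and Langerhans cell markers rose, beside 0.955% of all tested genes called. The 11 dendritic and Langerhans cell markers summed to 8.12 to 17.3 CPM in Control, 39.0 to 41.3 in active IKKβ, 4.20 to 12.03 under Stat3 loss and 10.5 to 31.5 in the combined libraries, and none was at 0 in every library of a group. Cd207, which encodes the Langerhans cell lectin langerin, rose by 2.52 ± 0.50 in active IKKβ against Control (log2, SE, edgeR adjusted p = 0.0414), and Itgax, which encodes the integrin CD11c, rose by 2.28 ± 0.44 (0.0391). The median of the 7 was 1.29 with 5 above 0, while Mgl2 and Clec10a, lectin genes of dendritic cells and macrophages, differed by -0.50 ± 0.51 (0.720) and -0.15 ± 0.58 (0.942). Averaged over both Stat3 states, Cd86, a costimulatory molecule, rose as well (1.97 ± 0.39, edgeR adjusted p = 0.0243). Per 100 CPM of these markers, the summed β chains measured 26.0 to 51.2 CPM in Control, 56.0 to 68.5 in active IKKβ, 26.0 to 41.6 under Stat3 loss and 40.2 to 54.3 in the combined libraries. The part of these cells in the β chain differences was not tested.

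The 16 macrophage and monocyte markers summed to 66.0 to 161 CPM in Control, 114 to 370 in active IKKβ, 72.5 to 159 under Stat3 loss and 53.6 to 109 in the combined libraries, with none at 0 in a whole group. Lyz2, the lysozyme gene, gave 269 of the 370 CPM in active IKKβ replicate 1, and without it the other 15 summed to 52.4 to 118 CPM in Control, 87.4 to 116 in active IKKβ, 41.3 to 109 under Stat3 loss and 42.0 to 87.4 in the combined libraries. In active IKKβ against Control, edgeR called none of the 16, beside 0.955% of all genes, with 13 above 0 and a median log2 fold change of 0.65. DESeq2 called 1 of them, Cx3cr1, beside 2.29% of all genes higher. Averaged over both Stat3 states, Cx3cr1, the fractalkine receptor, rose (1.20 ± 0.28, edgeR adjusted p = 0.0462). Among 12 eosinophil, basophil and mast cell markers, Prg2, Ccr3, Mcpt8 and Ms4a2 had 0 counts in every group, and the 12 summed to 1.62 to 3.92 CPM in Control, 1.76 to 3.19 in active IKKβ, 1.20 to 6.85 under Stat3 loss and 0.733 to 1.34 in the combined libraries. The 3 of these that could be tested had a median log2 fold change of -0.32 in active IKKβ against Control, with none called. The 9 lymphoid markers found summed to 1.23 to 3.24 CPM in Control, 1.76 to 4.16 in active IKKβ, 0.382 to 0.766 under Stat3 loss and 0.851 to 1.86 in the combined libraries. Their 3 tested genes, Cd3e, Cd3d and Cd4, were all above 0 in active IKKβ against Control with a median of 1.52, and none was called by edgeR or DESeq2. Averaged over both Stat3 states, their median was 1.86. There edgeR called none and DESeq2 called 1, Cd3e, beside 3.8% of all genes higher. Cd3e, Cd3d and Cd4 had their highest counts in active IKKβ and passed the count filter partly through that group, which favours a positive direction. The lymphoid markers under the filter went both ways. Cd8a had 5, 7 and 11 counts in Control and 0, 4 and 0 in active IKKβ, and Cd79a 1, 0 and 0 against 3, 4 and 1. The 10 fibroblast markers had a median log2 fold change of -0.37 in active IKKβ against Control with none called. Their part in the receptor results was not tested.

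**Figure D4:**
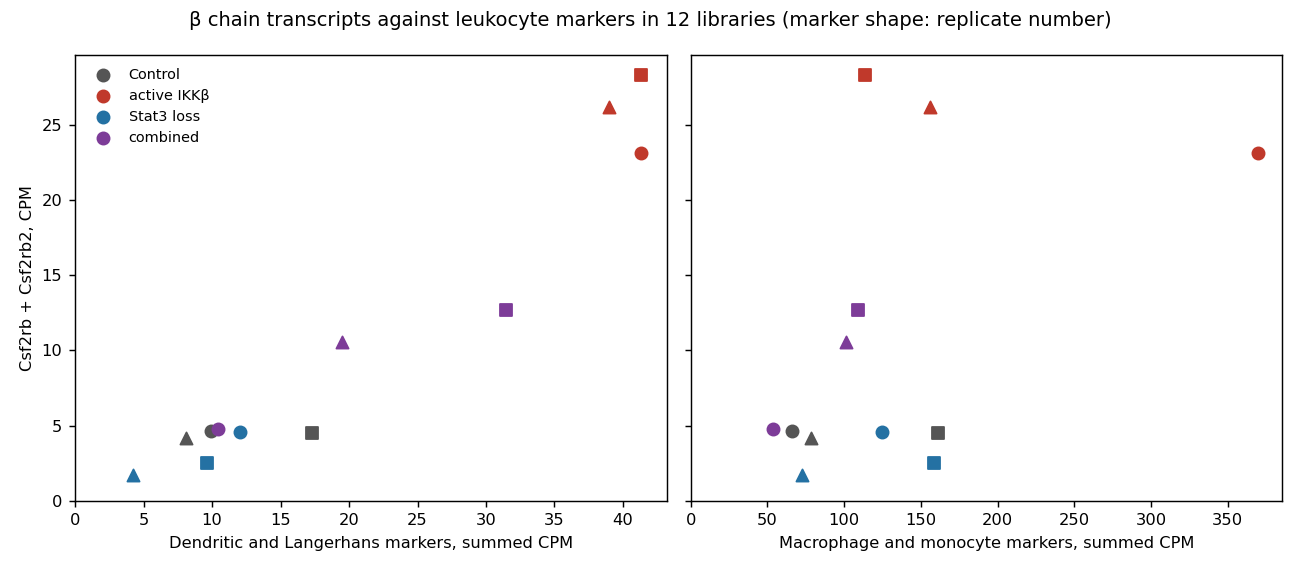
Summed CPM of Csf2rb and Csf2rb2 (vertical axis) against summed CPM of dendritic and Langerhans cell markers (left) and of macrophage and monocyte markers (right) in the 12 libraries, coloured by group, with shapes for replicates 1 to 3. The active IKKβ libraries lie at 39.0 to 41.3 CPM of dendritic markers with 23.1 to 28.3 CPM of β chains, and replicate 1 of that group lies at 370 CPM of macrophage markers, of which Lyz2 gives 269.

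Across the 12 libraries the genes most like each member were ranked by Pearson correlation of log2 CPM. This is a description over libraries that share group structure and scaling. Csf2rb went most closely with Cd86 (r = 0.98), Fmnl1 (0.98) and Itgax (0.97), and Csf2rb2 with Gpr141, Gm9705 and Il7r (0.96 each). Csf1, although made by many epithelial and stromal cells, went with Il2rg (0.97), the chemokine gene Ccl22 (0.96) and Pik3cg (0.96), and Csf1r with Ncf1, Nckap1l and Laptm5 (0.96 each). Csf2ra went with Rbm6, Mypop and Naip5 (0.94, 0.93 and 0.91), with a Spearman rho of 0.68 for Rbm6. Among the members, Csf1 with Csf1r and Csf2rb with Csf2rb2 both had r = 0.93, while Csf2ra had 0.57 to 0.69 with the other 4.

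The other ligands and receptors of the CSF families were examined as a list of 9 genes, of which 6 could be tested. Il34, the second ligand of the Csf1r kinase, measured 10.9, 8.15 and 28.8 CPM in Control, 10.9, 31.6 and 43.5 in active IKKβ, and 7.53, 5.67 and 13.0 under Stat3 loss against 21.8, 5.98 and 28.8 in the combined libraries. Its groups overlapped, with a log2 difference of 0.84 ± 0.66 between active IKKβ and Control (SE, edgeR adjusted p = 0.628). Flt3, the receptor kinase of dendritic cell precursors, had 4, 7 and 5 counts in Control, 59, 71 and 53 in active IKKβ, and 6, 1 and 11 under Stat3 loss against 8, 28 and 31 in the combined libraries. Every active IKKβ library was above every library of the other groups. Flt3 rose by 2.72 ± 0.51 averaged over both Stat3 states (log2, SE, edgeR adjusted p = 0.0184), the only edgeR call among the 6, beside 2.72% of all genes called, and missed the threshold in active IKKβ against Control (3.43 ± 0.73, edgeR adjusted p = 0.0579). DESeq2 called 2 of the 6 in that average, Flt3 and Kit, beside 3.8% of all genes higher. Kit, the stem cell factor receptor, differed by 1.29 ± 0.38 in that average (edgeR adjusted p = 0.119), and Flt3l, the Flt3 ligand, by 0.34 ± 0.13 (0.212). The list's median was 0.66, beside 0.00067 for all tested genes.

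Il5ra, the α chain that pairs with the Csf2rb product in the IL-5 receptor, was under the count filter and is named after its values were seen. It had 0 counts in all 6 Control and Stat3 loss libraries, 5, 7 and 13 in active IKKβ and 4, 2 and 3 in the combined group. With the 0 counts replaced by a floor of 3 counts over the group, the 25 counts of active IKKβ were 8.10-fold the level in Control. The 9 counts of the combined group were 3.37-fold the level with Stat3 loss. These ratios depend on the chosen floor and cover neither counting error nor the spread between libraries. Without the count filter it passed in the average over both Stat3 states (edgeR adjusted p = 0.0211 over 18498 genes) and not in active IKKβ against Control (0.0937). Il3 had 0 counts in all 12 libraries. Among the eosinophil markers, Prg2 and Ccr3 had 0 counts in all 12 libraries. Siglec5 had 6, 0 and 2 counts in active IKKβ, 0, 2 and 1 in the combined group and 0 in the other 6 libraries, and Ear1 had 2 counts in active IKKβ replicate 1 and 0 elsewhere. The part of these cells in the Il5ra counts was not tested.

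**Figure D5:**
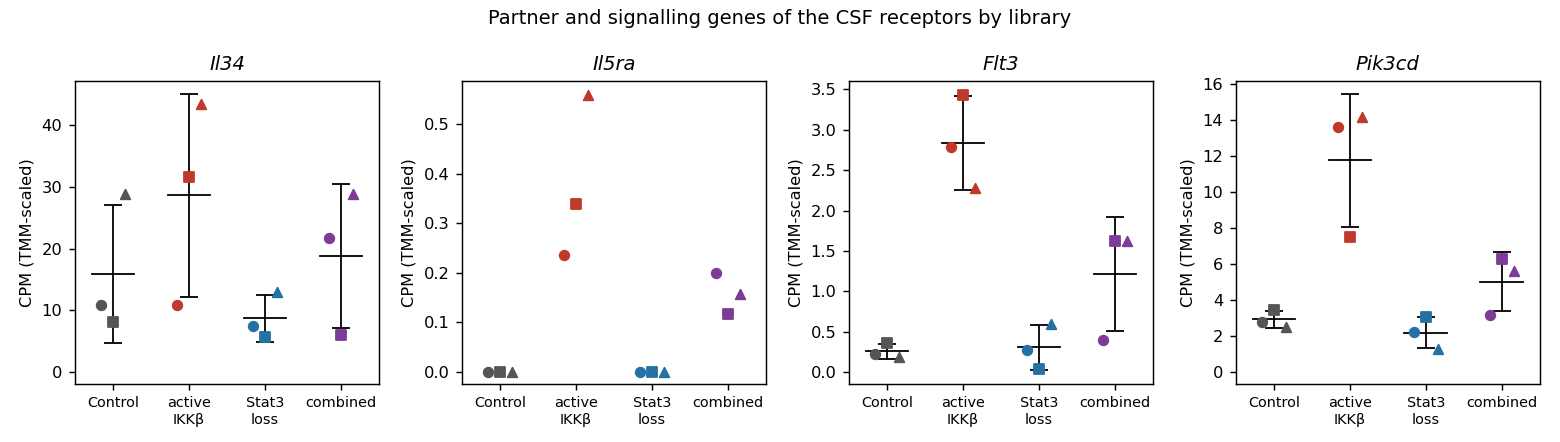
TMM-scaled CPM (vertical axes) of Il34, Il5ra, Flt3 and Pik3cd by group, with replicates as circles, squares and triangles and mean and SD for the 3 tested genes. Il34 overlapped between groups, Il5ra was at 0 in all Control and Stat3 loss libraries, and Flt3 and Pik3cd were highest in the 3 active IKKβ libraries.

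Of 23 genes of CSF receptor signalling, all tested, 2 rose by edgeR with active IKKβ averaged over both Stat3 states, beside 2.12% of all genes higher. DESeq2 called 3, these 2 and Inpp5d, beside 3.8% of all genes higher. Pik3cd, the leukocyte PI3-kinase δ catalytic subunit, measured 2.80, 3.45 and 2.51 CPM in Control, 13.6, 7.50 and 14.1 in active IKKβ, and 2.21, 3.03 and 1.31 under Stat3 loss against 3.15, 6.27 and 5.60 in the combined libraries. It rose by 1.60 ± 0.26 (log2, SE, edgeR adjusted p = 0.0093), and by 2.01 ± 0.38 in active IKKβ against Control (0.0329). Fgr, a Src-family kinase of myeloid cells, rose by 2.11 ± 0.41 (0.0209). Inpp5d, which encodes the phosphatase SHIP1, differed by 1.17 ± 0.32 (0.0937). The kinase and transcription factors directly below the β chain did not pass: Jak2 differed by 0.22 (adjusted p = 0.516), Stat5a by -0.12 (0.619), Stat5b by -0.14 (0.263) and Stat3 by 0.26 (0.273). The feedback inhibitor Socs3 differed by -0.07 (0.907). The median of the 23 was 0.14.

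The calls of Flt3 and Fgr in that average were lost without some single libraries. Flt3 lost its call without Control replicate 1, active IKKβ replicate 2, Stat3 loss replicate 1 or combined replicate 3 (edgeR adjusted p = 0.0509 to 0.0576), and Fgr without Control replicate 1 or any 1 of the Stat3 loss libraries (0.0509 to 0.0592). Fgr also lost it when scaled by library totals in place of TMM (edgeR adjusted p = 0.0571), without both libraries rich in gastric transcripts (0.0761) and in replicates 2 and 3 alone, the males (0.120). The Pik3cd call in that average was kept in all 12 fits that left out 1 library, and the one against Control was lost in 7 of 12 (0.0559 to 0.161). That call against Control was also lost with library totals (edgeR adjusted p = 0.128), in a fit of the contrast's own groups (0.0692), without both gastric-rich libraries (0.0670) and in the males alone (0.378).

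edgeR called none of the 9 tested myeloid transcription factor genes in that average, beside 2.72% of all genes, with a median log2 difference of 0.57. DESeq2 called 1, Runx1, beside 3.8% of all genes higher. Runx1 differed by 0.57 ± 0.14 (edgeR adjusted p = 0.0605) and Sfpi1, which encodes PU.1, by 0.92 ± 0.39 (0.292). Of the cytokines known to induce CSFs, 10 of 12 were found and 5 tested, with none called by edgeR or DESeq2 and a median of 0.38. Tnf differed by 1.95 ± 0.92 (edgeR adjusted p = 0.341), Tslp by -0.73 ± 0.50 (0.523) and Il18 by 0.42 ± 0.46 (0.705). Il6 had 0 counts in the Control, active IKKβ and combined groups.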

How the data were processed

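Epithelial polyA RNA from the mouse oesophagus was sequenced in 4 genotype groups of 3 libraries, analysed here from the read counts per gene symbol that the authors deposited. Per the submitters' processing notes, cutadapt 1.13, STAR, HTSeq 0.6.1p1 and DESeq2 were used with mm10, and the deposited counts are not normalized. Strand and multi-mapping settings are not given in the sources used here.

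The CSF genes, the gene lists and the tests were chosen with earlier results of these data known. The lists hold 195 entries, of which 191 matched a symbol and 4 of those matched through an older name. All 12 libraries entered 1 edgeR 4.0.16 quasi-likelihood model (R 4.3.3, robust, TMM factors, filterByExpr defaults), tested on simulated data first. The filter kept 14134 genes, including Csf1, Csf1r, Csf2ra, Csf2rb and Csf2rb2, and removed Csf2, Csf3 and Csf3r. A gene was called below a Benjamini-Hochberg adjusted p of 0.05 over all tested genes. CPM are scaled by TMM factors, and log2 CPM for correlations used a prior count of 2. DESeq2 1.42.0 was an alternative. Standard errors are the log2 fold change divided by the root of the F statistic. An exact permutation test of 3 against 3 libraries cannot go below p = 0.1, so none is quoted. Genes named from the lists were those called, the 3 with the smallest p per list in the averaged IKKβ effect, Il34, Jak2, Stat3, Stat5a, Stat5b and Socs3, plus Il5ra and Il3, named after their values were seen; 1 gene that this rule names is not reported here. No 2 libraries were copies (chi-square divided by degrees of freedom at least 26.1 over 66 pairs). Sequences and positions come from GENCODE M21 on mm10 and RefSeq on GRCm38.p6.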

Additional observations from a re-analysis of the deposited data

How the results depend on the processing

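In active IKKβ against Control, 2 members were called, among 135 genes in all. The count was 1 with library totals, among 66 genes in all. With replicates 2 and 3 of each group alone (males, chosen after seeing the data) it was 1, Csf2rb2, among 19. With Csf2rb and Csf2rb2 summed into 1 gene, that sum was the 1 member called, among 134. DESeq2 called 4 (Csf1 and Csf1r in addition), beside 2.29% of all genes higher. The count was 0 to 3 when 1 library was left out. In 4 further comparisons edgeR called 0 members. DESeq2 called 1 higher in combined against Control (1.67% of all genes higher) and 1 lower in combined against active IKKβ (0.553% lower). It called 2 higher in combined against Stat3 loss (1.38% higher) and 1 lower in Stat3 loss averaged over IKKβ status (1.62% lower). In active IKKβ averaged over Stat3 status the count of 3 stayed between 2 and 4, with Csf2rb and Csf2rb2 called under every setting that kept them apart. There 384 genes were called in all, 217 with library totals and 105 in the males alone. Csf1 there lost its call with library totals (adjusted p = 0.0692) and in the males alone (0.117), and the males alone also lost Flt3 (0.148), Fgr (0.120) and Pik3cd (0.125). Without both gastric-rich libraries, the 2 called in active IKKβ against Control were Csf1 and Csf2rb2, among 83 genes in all, and Csf2rb missed (0.0721).

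Members near no change turned direction, none of them called, and the cause was not tested. Over the fits that left out 1 library, Csf1r in Stat3 loss against Control ranged from -0.23 to 0.40, and Csf2ra from -0.23 to 0.36 there, -0.70 to 0.18 in combined against active IKKβ, -0.042 to 0.72 in combined against Stat3 loss, -0.83 to 0.059 in the interaction and -0.29 to 0.15 in Stat3 loss averaged over IKKβ status. In the males alone, Csf1r and Csf2ra were -0.45 and -0.20 in Stat3 loss against Control, and Csf2ra was 0.40 in combined against active IKKβ and 0.099 in the Stat3 average. Interactions in the males were 0.078 for Csf1, 0.60 for Csf2ra and 0.022 for Csf2rb. Without both gastric-rich libraries, Csf2ra was 0.18 in combined against active IKKβ and 0.28 in the Stat3 average.

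With the replicate number as a block, 2 members were called in active IKKβ against Control and 3 in the average, and 173 and 503 genes in all against 135 and 384 without it. Same-numbered libraries had correlations of -0.41 to 0.45 over 18 pairs, with a median of 0.10 against -0.064 for the other pairs. These values cannot decide whether the numbers pair the libraries, because they spread widely and the replicate number also carries sex. A fit of the contrast's own groups gives no separate value for the interaction and the averages, which use all 4 groups. Depth limits Csf2, Csf3 and Csf3r, whose counts could not be tested.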
